A study of Mus musculus with 12 samples.

Results

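The enzymes described here make serine, proline and asparagine from intermediates of central carbon metabolism, together with the enzyme that opens proline breakdown. They were chosen by name as Phgdh, Psat1 and Psph for serine, Aldh18a1 and Pycr1 for proline synthesis, Prodh for proline breakdown and Asns for asparagine. Of the 43686 rows of the gene table, 6 carry one of these names. The seventh enzyme, Phgdh, has a row whose name cell is blank, and it was found by the table's own pathway annotation. All 7 rows had enough counts to be tested, and they are among 17155 rows that did.

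Ventricular wall RNA was sequenced in 6 samples of control mice (WT) and 6 samples of mutant mice (KO) of the C57BL/6 strain, at postnatal month 2 by the labels, whereas the text of the study's results gives a younger age. Both groups carried floxed Sdhaf4 alleles on both chromosomes (Sdhaf4fl/fl). The KO mice also carried Ckmm-Cre, a Cre recombinase under the muscle creatine kinase promoter, which directs the deletion of Sdhaf4 to cardiac and skeletal muscle cells rather than to the other cells of the heart. The WT mice were littermates without Cre, the labels call the mutants Sdhaf4-/- without naming the Cre, and mice with Cre and no floxed allele were not analysed here. Sdhaf4 encodes an assembly factor of succinate dehydrogenase, which is both an enzyme of the citric acid cycle and complex II of the respiratory chain. The comparison asks how the expression of these enzymes differed between the KO and WT samples. The study reports dilated cardiomyopathy in the mutants, so the loss of Sdhaf4, Cre and heart disease cannot be told apart here.

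Serine is made from the glycolytic intermediate 3-phosphoglycerate by PHGDH, PSAT1 and PSPH in turn, and it supplies glycine and the carbon units carried by folate. Proline is made in mitochondria from glutamate by ALDH18A1 and then PYCR1, while the cytosolic PYCRL reduces the same intermediate to proline and PRODH in the inner mitochondrial membrane oxidizes proline back. Asparagine is made from aspartate and glutamine by ASNS. Genes of these routes are known targets of ATF4, a transcription factor whose translation rises under amino acid shortage and mitochondrial stress.

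The targeted gene and the libraries were examined first. Sdhaf4 ranged from 14.3 to 30.3 CPM (counts scaled to a common library size, with TMM factors for library composition) in WT and from 2.25 to 2.73 CPM in KO, with a log2 fold change (SE) of -3.39 (0.16) in KO against WT and an edgeR adjusted p = 1.95e-10. Library totals were 23747014 to 27159228 counts in WT and 26542930 to 31393393 in KO. A pair of libraries of 1 genotype differed by 6.99 to 48.6 in chi-square per degree of freedom, well over the value of 1 that sampling noise gives, and each was kept as a replicate. Whether each sample is a separate animal is not given in the labels, so the p-values measure the spread between these samples. Over the genes called without it, KO replicate 3 lay a median of 0.22 of the way from the KO to the WT mean, and the other libraries lay between -0.07 and 0.07 on this scale. WT replicate 6 had the lowest Sdhaf4 of its group (14.3 CPM). In each WT and KO library the 10 cardiomyocyte markers were detected, at a sum of 53940 to 59087 CPM in WT and 44651 to 60437 CPM in KO, where KO replicate 3 was at 60437 and the others at 49674 CPM or less. Of these markers Tnni3, Pln, Ryr2, Myl2 and Myl3 were called lower and Actn2 higher at an adjusted p under 0.05 by edgeR. The summed CPM of the 10 fibroblast markers ranged from 1637 to 1926 in WT and from 2769 to 5253 in KO, with 9 of 10 higher and 1, Dpt, lower. For endothelial markers the sums ranged from 3248 to 3701 in WT and 3306 to 3937 in KO, with 6 of 10 higher and 1, Tek, lower. They were 227 to 313 in WT and 227 to 372 in KO for macrophage markers (Mrc1 higher, Csf1r and Adgre1 lower) and 1764 to 1946 and 1605 to 2139 for smooth muscle and pericyte markers (Rgs5 and Pdgfrb higher, Acta2 and Abcc9 lower). They were 3.31 to 5.64 and 2.98 to 8.08 for lymphocyte markers (Cd8a higher) and 30.3 to 78.1 and 8.40 to 35.1 for markers of proliferating cells (Mki67 and Birc5 lower). The numbers tested in the last 4 lists were 9 macrophage, 8 smooth muscle and pericyte, 6 lymphocyte and 8 proliferating cell markers. Beside these counts, 25.6% of all rows tested were called higher and 25.5% lower by the same test. The markers named here were chosen after their values were seen. In RNA from whole tissue, fewer cells of a type and less RNA per cell cannot be told apart.

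In the KO hearts 5 of the 7 enzymes rose, Prodh fell and Psat1 did not pass the test. The rises spanned all 3 routes, from 1.48-fold for Psph to 3.14-fold for Pycr1. Of all rows tested, 25.6% were called higher and 25.5% lower at this threshold, and the median log2 fold change was 0.00 against 1.05 for the 7 enzymes. With the thresholds of the study's methods (an adjusted p of less than 0.005 together with a log2 fold change beyond 1 in either direction), Aldh18a1, Pycr1 and Asns passed, and 10.2% of all rows did. The WT and KO libraries did not overlap for Aldh18a1, Asns and Prodh. This was so for 30.1% of all rows. Of the 6 rows found by gene name, 4 were higher, 1 lower and 1 neither, with a median log2 fold change of 0.96.

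**Figure D1:**
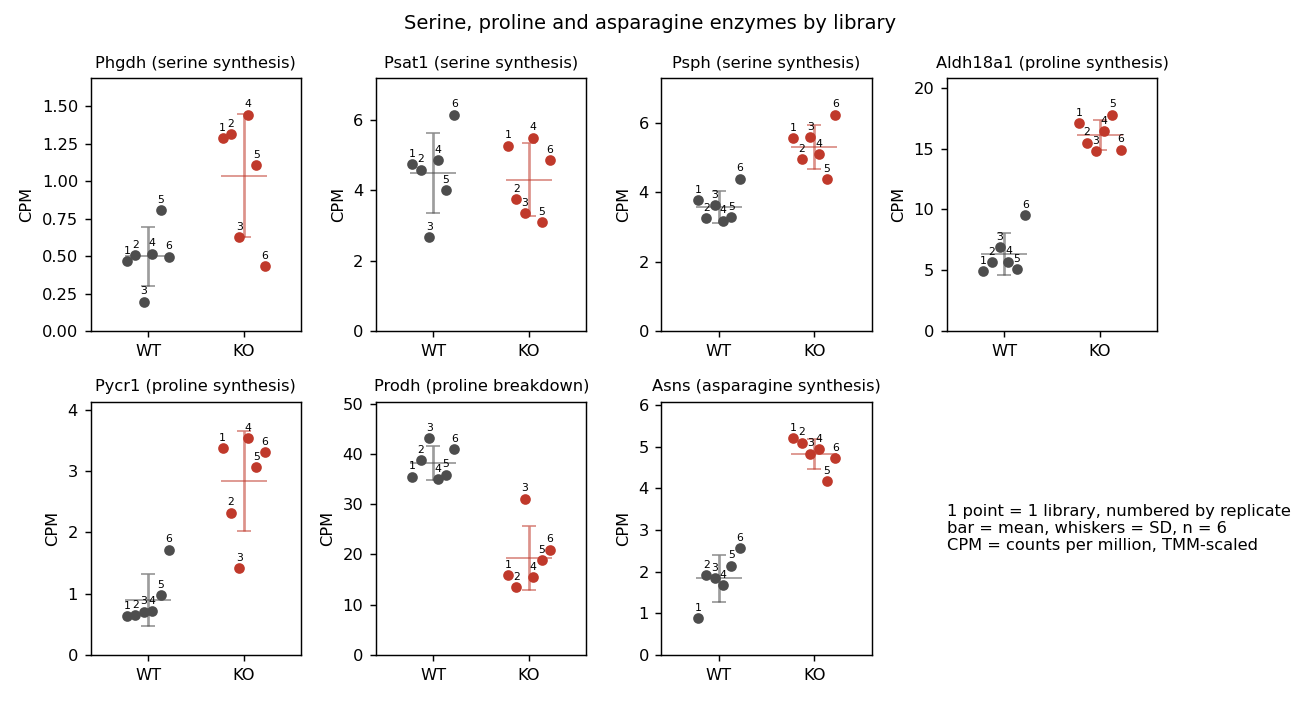
Each panel plots the level of one enzyme in CPM (TMM-scaled counts, linear axis from 0) for the 6 WT and 6 KO libraries, as points numbered by replicate with the mean and SD as bars. The groups are apart for Aldh18a1, Prodh and Asns, meet or overlap for Phgdh, Psph and Pycr1, and lie on top of each other for Psat1, where the means are 4.50 and 4.30 CPM.

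Promoter windows of the enzymes were read from RefSeq (GRCm38.p6, 250 bases before to 50 bases after each annotated start, on the strand of the gene). All 7 genes were matched, with 8 windows. Both strands were searched for the C/EBP-ATF response element to which ATF4 binds, spelled TGATGNAA, and for the E-box CACGTG. Of all 32851 RefSeq windows, 3.97% held the first and 7.15% the second. Asns (chr6:7693160-7693459, minus strand) and Pycr1 (chr11:120643699-120643998, minus strand) each held 1 TGATGNAA match, which began 23 and 103 bases before the start, and Aldh18a1 (chr19:40588414-40588713, minus strand) held 1 CACGTG, which began 59 bases before it. These letters were not in the windows of Phgdh, Psat1, Psph and Prodh. A match is a description of the sequence, and binding was not measured. The windows with a match to either motif are shown with the match in capitals, which is TGATGNAA in Asns and Pycr1 and only CACGTG in Aldh18a1. Sequence outside the windows was not searched, and a relation between the matches and the fold changes was not tested.
Asns: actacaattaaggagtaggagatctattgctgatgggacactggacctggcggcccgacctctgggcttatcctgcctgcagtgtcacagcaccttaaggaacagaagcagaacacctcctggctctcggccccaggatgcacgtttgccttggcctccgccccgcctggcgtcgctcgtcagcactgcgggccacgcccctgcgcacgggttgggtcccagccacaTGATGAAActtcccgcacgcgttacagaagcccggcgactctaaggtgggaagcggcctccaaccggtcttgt
Pycr1: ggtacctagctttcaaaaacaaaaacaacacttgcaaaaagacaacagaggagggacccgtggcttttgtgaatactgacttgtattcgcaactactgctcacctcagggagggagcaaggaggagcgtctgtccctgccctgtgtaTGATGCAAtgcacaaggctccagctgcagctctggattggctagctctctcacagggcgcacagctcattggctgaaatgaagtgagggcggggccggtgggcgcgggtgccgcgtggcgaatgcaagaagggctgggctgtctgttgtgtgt
Aldh18a1: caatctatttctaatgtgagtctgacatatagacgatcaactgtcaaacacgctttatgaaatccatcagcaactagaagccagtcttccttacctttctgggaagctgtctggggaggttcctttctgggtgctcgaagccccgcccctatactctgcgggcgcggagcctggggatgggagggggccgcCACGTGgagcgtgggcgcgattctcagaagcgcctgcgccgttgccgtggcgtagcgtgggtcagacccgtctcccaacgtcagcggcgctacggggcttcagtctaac

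The serine route was examined enzyme by enzyme. Phgdh (MGP_C57BL6NJ_G0028069, chromosome 3, 102981117 to 103012533 on the C57BL/6NJ assembly, minus strand) encodes the dehydrogenase of the first step. It was at 0.197, 0.501 and 0.809 CPM (lowest, median and highest) in WT and at 0.433, 1.20 and 1.44 CPM in KO. KO replicates 3 and 6 lay within the WT range and the other KO libraries lay above it. The mean rose from 0.498 ± 0.194 to 1.03 ± 0.410 CPM (SD, n = 6 each), with a log2 fold change (SE) of 1.05 (0.35) in KO against WT, 95% interval 0.31 to 1.79, and an edgeR adjusted p = 0.0194. These values rest on 5 to 20 counts a library in WT and 12 to 42 in KO. The identity of the counts is also uncertain, since 47.8% of the 50-base words in the Phgdh transcripts of GENCODE (GRCm38) occur in 23 other genes, of which 19 are annotated as pseudogenes.

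The KO libraries with the least Phgdh were also those with the lowest fibroblast marker sums. KO replicates 6 and 3, at 0.433 and 0.629 CPM of Phgdh, had 2769 and 3141 CPM of fibroblast markers. The other 4 KO libraries, at 1.11 to 1.44 CPM of Phgdh, had 4144 to 5253 CPM of these markers. In WT, Phgdh varied from 0.197 to 0.809 CPM while the sum stayed between 1637 and 1926. The part of fibroblasts in the Phgdh result was not tested.

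Psat1 (MGP_C57BL6NJ_G0025374, chromosome 19, 14169427 to 14211761, minus strand) encodes the aminotransferase of the middle step. It was at 2.68, 4.66 and 6.15 CPM in WT and at 3.10, 4.31 and 5.50 CPM in KO, so that the KO range lay inside the WT range. The log2 fold change was -0.07 (standard error 0.19, 95% interval -0.47 to 0.34, adjusted p = 0.801 from edgeR). Its sign turned to 0.04 without WT replicate 6 and to 0.02 without KO replicate 5. The interval leaves room for a modest change either way, and the difference between Psat1 and the other enzymes of its route was not tested.

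Psph (MGP_C57BL6NJ_G0030561, chromosome 5, 139017506 to 139041952, minus strand) encodes the phosphatase that releases serine. It was at 3.18, 3.45 and 4.39 CPM in WT and at 4.37, 5.32 and 6.24 CPM in KO. The groups met at a single point, where KO replicate 5 (4.37 CPM) lay just under WT replicate 6 (4.39 CPM). The mean rose from 3.58 ± 0.460 to 5.30 ± 0.643 CPM (SD, n = 6 each), with a log2 fold change (SE) of 0.56 (0.13) in KO against WT, 95% interval 0.30 to 0.83, and an edgeR adjusted p = 0.00126. Its span shares 452 bases with an unnamed row on the other strand that had 99.7 CPM in WT and 104 in KO (log2 fold change 0.05, adjusted p = 0.274), and 8.82% of its 50-base words occur in Cct6a. The unnamed row was not identified, so it and Cct6a may be the same neighbour. Whether strand was used in counting is not given in the sources used here.

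The largest rise, that of Pycr1, was in proline synthesis, and the first gene of that route rose as well. Aldh18a1 (MGP_C57BL6NJ_G0025527, chromosome 19, 40839998 to 40884194, minus strand) encodes the enzyme that turns glutamate into the common precursor of proline and ornithine. It was at 4.95, 5.70 and 9.55 CPM in WT and at 14.8, 16.0 and 17.8 CPM in KO. The lowest KO library was 1.55 times the highest WT library, WT replicate 6, and the other WT libraries did not exceed 6.93 CPM. The mean rose from 6.32 ± 1.73 to 16.1 ± 1.23 CPM (SD, n = 6 each), with a log2 fold change (SE) of 1.35 (0.14) in KO against WT, 95% interval 1.06 to 1.63, and an edgeR adjusted p = 3.85e-07. It became 1.50 without WT replicate 6.

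Pycr1 (MGP_C57BL6NJ_G0019909, chromosome 11, 128899534 to 128907469, minus strand) encodes a mitochondrial reductase of the last step. It was at 0.634, 0.712 and 1.72 CPM in WT and at 1.42, 3.19 and 3.54 CPM in KO. The groups overlapped through 1 library each, KO replicate 3 at 1.42 CPM and WT replicate 6 at 1.72 CPM. Without these, the highest WT library was at 0.971 CPM and the lowest KO library at 2.32 CPM. The mean rose from 0.900 ± 0.420 to 2.84 ± 0.815 CPM (SD, n = 6 each), with a log2 fold change (SE) of 1.65 (0.28) in KO against WT, 95% interval 1.05 to 2.25, and an edgeR adjusted p = 0.000116. It was 1.94 without WT replicate 6, 1.78 without KO replicate 3 and 2.07 without both.

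Pycrl, which encodes the cytosolic reductase, fell from 9.93 ± 0.905 to 8.19 ± 1.15 CPM, with a log2 fold change (SE) of -0.28 (0.10) in KO against WT and an edgeR adjusted p = 0.0317. With 1 library left out, Pycrl passed the test in 6 of 12 fits, and its adjusted p from edgeR reached 0.0748. The difference between Pycrl and Pycr1 was not tested.

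Prodh, the gene of proline breakdown, moved the other way. Prodh (MGP_C57BL6NJ_G0023016, chromosome 16, 15515367 to 15550028, minus strand) was at 34.9, 37.4 and 43.1 CPM in WT and at 13.6, 17.3 and 31.1 CPM in KO. All KO libraries lay below all WT libraries, and KO replicate 3 stood between the other KO libraries, at 21.0 CPM or less, and WT. The mean fell from 38.2 ± 3.34 to 19.3 ± 6.35 CPM (SD, n = 6 each), with a log2 fold change (SE) of -0.98 (0.17) in KO against WT, 95% interval -1.35 to -0.62, and an edgeR adjusted p = 0.000286. The estimate is just short of the fold threshold of the study's methods, and without KO replicate 3 it was -1.18, past it. It was also past it, at -1.02 to -1.01, without WT replicate 1, 4 or 5 or KO replicate 6. KO replicate 3 also had the highest cardiomyocyte marker sum, 60437 CPM against 44651 to 49674 in the other KO libraries. KO replicate 2, the next highest in that sum at 49674 CPM, had the lowest Prodh, 13.6 CPM. The part of cardiomyocytes in the Prodh result was not tested. The span of Prodh shares 17410 bases with Dgcr6 on the other strand, which was at 29.2 CPM in WT and 26.5 in KO (log2 fold change -0.14, adjusted p = 0.0816).

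Asns (MGP_C57BL6NJ_G0030881, chromosome 6, 4717874 to 4736025, minus strand) encodes the enzyme that transfers an amide group from glutamine to aspartate. It was at 0.888, 1.88 and 2.56 CPM in WT and at 4.17, 4.89 and 5.20 CPM in KO. The groups were apart in all libraries, and WT replicate 1 was the lowest. The mean rose from 1.84 ± 0.557 to 4.83 ± 0.366 CPM (SD, n = 6 each), with a log2 fold change (SE) of 1.39 (0.19) in KO against WT, 95% interval 0.99 to 1.78, and an edgeR adjusted p = 9.44e-06. No 50-base word of Asns or of Aldh18a1 occurs in another annotated gene, and no other row overlaps their spans.

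**Figure D2:**
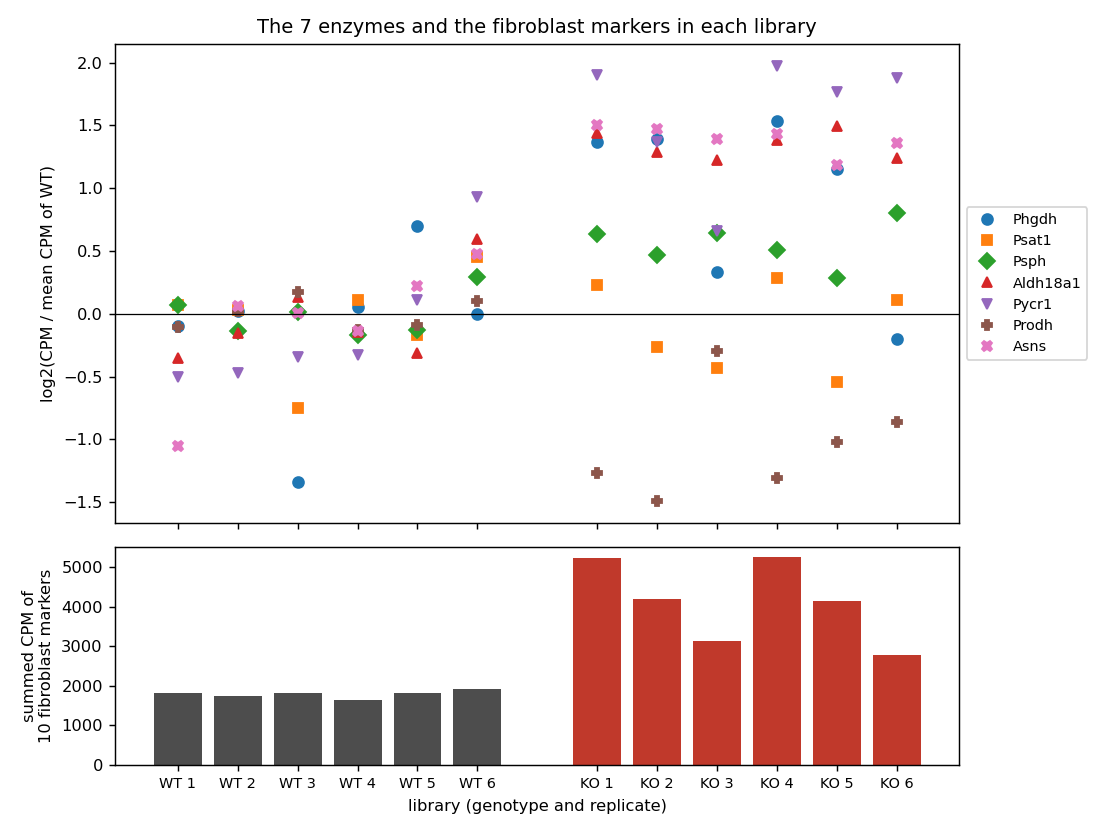
The upper panel plots, for each library, the log2 ratio of each enzyme's CPM to its WT mean, and the lower panel plots the summed CPM of 10 fibroblast markers (bars from 0). Pycr1, Aldh18a1, Asns and Psph lie above 0 in every KO library. Prodh lies below 0 in every KO library and is nearest to it in KO replicate 3. Among the KO libraries Phgdh is lowest in replicates 3 and 6, which also have the shortest fibroblast bars of that genotype.

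Levels were compared between genes per length, as FPKM (read counts per length and library size, as the authors deposited them). In WT, Prodh stood far above the synthesis enzymes at 41.0 ± 3.94 FPKM (SD, n = 6), followed by Aldh18a1 (4.29 ± 1.25), Psat1 (3.66 ± 0.980), Psph (3.35 ± 0.479), Asns (1.87 ± 0.584), Pycr1 (0.759 ± 0.369) and Phgdh (0.563 ± 0.215). The ranges of neighbours in this order overlapped except between Prodh and Aldh18a1 and between Psph and Asns. In KO, the order was Prodh (20.6 ± 6.22), Aldh18a1 (10.9 ± 1.06), Psph (4.95 ± 0.533), Asns (4.90 ± 0.412), Psat1 (3.50 ± 0.888), Pycr1 (2.40 ± 0.717) and Phgdh (1.18 ± 0.487). There, Prodh and Aldh18a1 and then Aldh18a1 and Psph were apart, and the neighbours below them overlapped. The length behind these FPKM differs from the table's length column. With that column the order was the same apart from Asns, which passed Psph in KO. The mean of Prodh was 9.56 times that of Aldh18a1 in WT and 1.89 times in KO on the FPKM scale.

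**Figure D3:**
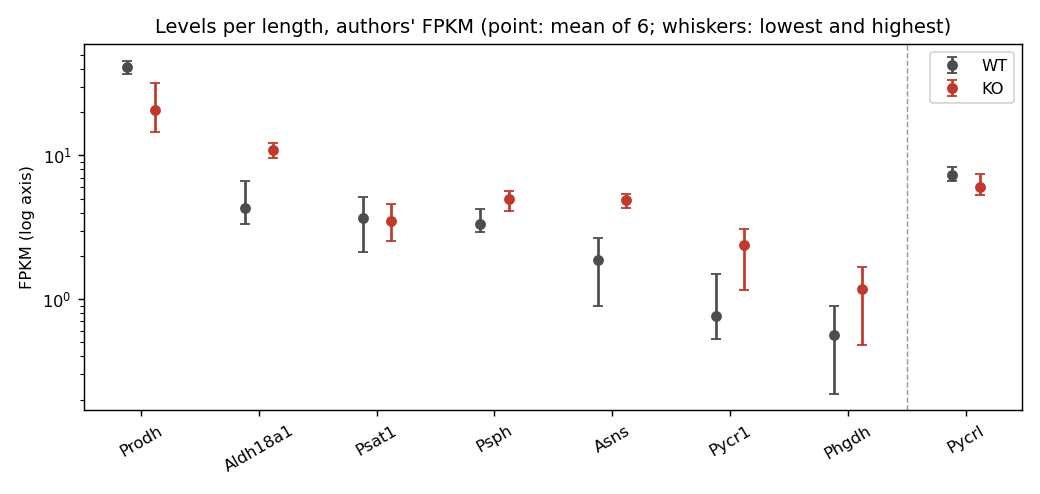
Mean levels per length in the authors' FPKM (log axis) for the 7 enzymes and, right of the dashed line, the cytosolic reductase Pycrl, with whiskers from the lowest to the highest of 6 libraries in each genotype. Prodh and Aldh18a1 lie further apart in WT, at 41.0 and 4.29 FPKM, than in KO, at 20.6 and 10.9 FPKM.

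The genes around each route were counted next. Of 12 listed genes around serine and glycine metabolism, some of which also act in other pathways, 10 were tested. Of these 7 fell and 3 did not pass, none rose by edgeR (0 also at an unadjusted p under 0.05, and 0 with DESeq2 and limma-voom), and the median log2 fold change was -0.34. Of all rows tested, 25.5% were called lower. Gcat, a mitochondrial enzyme of threonine breakdown that yields glycine, fell from 10.5 to 2.74 CPM (log2 fold change -1.94, adjusted p = 3.82e-08). The cytosolic serine hydroxymethyltransferase Shmt1 fell from 13.2 to 5.78 CPM (log2 fold change -1.19, adjusted p = 6.07e-06). Sds, which deaminates serine to pyruvate, had 16 to 29 counts in each WT library and 0 to 2 in each KO library, or 144 and 4 in all. The mitochondrial Shmt2, chosen after its values were seen, was at 44.0 ± 1.04 CPM in WT and 37.1 ± 0.982 in KO (log2 fold change -0.25, adjusted p = 0.000138). In the serine route itself Psph rose, Phgdh rose on few counts of uncertain identity, and Psat1 did not pass the test. Of the 10 surrounding genes tested 7 fell, and a difference between them and the route was not tested.

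Around proline, 10 genes were listed and 8 tested, of which 2 rose, 4 fell and 2 did not pass (median -0.11). The share that rose is near the 25.6% of all rows called higher, 25.5% of all rows were called lower, and the 4 include Pycrl, whose call was lost in 6 of 12 fits. The fall was largest for Aldh4a1, the mitochondrial dehydrogenase that follows PRODH in proline breakdown, from 71.2 ± 3.87 to 29.1 ± 4.11 CPM (log2 fold change -1.29, adjusted p = 1.34e-09). Both genes of the route from proline back to glutamate were thus lower. Oat and Glud1, chosen after their values were seen, were the others that fell beside Pycrl, at log2 fold changes of -0.43 and -0.13. The genes that rose encode the catalytic subunits of collagen prolyl 4-hydroxylase, P4ha1 from 38.5 to 69.5 CPM (log2 fold change 0.85, adjusted p = 2.90e-08) and P4ha2 from 28.2 to 44.4 CPM (log2 fold change 0.66, adjusted p = 1.17e-06). P4ha1 and P4ha2 did not overlap between the groups, as 30.1% of all rows did not. The fibroblast marker sums given above were also higher in KO than in WT, and a relation between them and these genes was not tested.

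Around asparagine and aspartate, 11 genes were listed and tested, of which 4 rose, 3 fell and 4 did not pass (median 0.04). These shares are near those of all rows tested, 25.6% called higher and 25.5% lower. Nars, the cytosolic asparaginyl-tRNA synthetase, rose from 108 to 141 CPM (log2 fold change 0.38, adjusted p = 7.66e-06). Ass1, which joins aspartate to citrulline, rose from 2.25 to 5.15 CPM (log2 fold change 1.19, adjusted p = 6.44e-06). Nit2, an omega-amidase that acts on the keto acids of glutamine and asparagine, fell from 33.8 to 19.4 CPM (log2 fold change -0.80, adjusted p = 3.22e-08). Chosen after their values were seen, Glul and Aspg were the other genes that rose (0.38 and 1.41), and Got1 and Aga the others that fell (-0.27 and -0.25). Aspg, an asparaginase, stood at 0.593 CPM in WT and 1.60 in KO.

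Of 21 genes listed as ATF4 and its targets, the 7 enzymes left out, 19 were tested. Of these 12 rose, 2 fell and 5 did not pass, and the median log2 fold change was 0.37, beside 25.6% of all rows called higher and 25.5% lower. Nupr1, a stress-induced chromatin protein, rose from 6.06 to 25.1 CPM (log2 fold change 2.05, adjusted p = 3.08e-09). Slc3a2, the heavy chain of amino acid exchangers, rose from 40.2 to 65.7 CPM (log2 fold change 0.71, adjusted p = 5.38e-08), and the stress factor Ddit3 rose from 15.0 to 29.0 CPM (log2 fold change 0.95, adjusted p = 9.39e-07). The genes that fell were Atf3 (log2 fold change -1.70, adjusted p = 0.00168) and Vldlr (-0.90, adjusted p = 3.26e-06). They and the next pair were chosen after their values were seen. The mRNA of Atf4 itself rose from 86.4 ± 6.48 to 108 ± 5.21 CPM (log2 fold change 0.32, adjusted p = 0.000121). Mthfd2, the mitochondrial folate enzyme that works on the carbon unit from serine, rose from 2.72 ± 1.11 to 17.9 ± 4.21 CPM, which is the largest log2 fold change of the list (2.71, adjusted p = 1.25e-06).

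**Figure D4:**
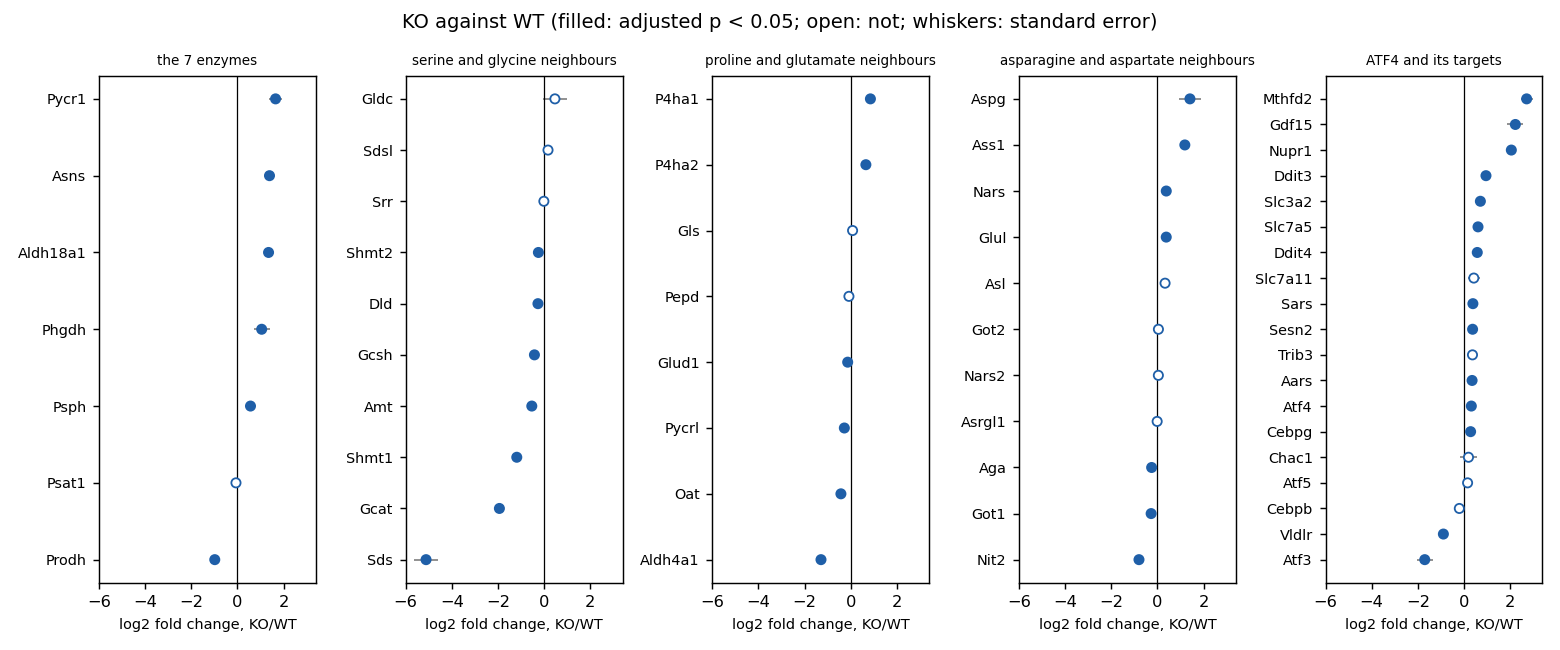
Log2 fold changes of KO against WT (x axis, edgeR) with standard errors as whiskers for the 7 enzymes and the tested genes of the 4 lists, filled where the adjusted p is under 0.05. The serine and glycine genes lie at or left of 0 apart from Gldc and Sdsl, which are open, 12 of 19 in the ATF4 panel are filled and right of 0, and the far left point is Sds, which rests on 4 counts in KO.

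Variation among libraries of the same genotype was then compared between the enzymes. After each genotype's mean was subtracted, Pearson's r of log2 CPM over the 12 libraries ranged from -0.67 for Phgdh with Prodh to 0.65 for Aldh18a1 with Pycr1. It was 0.57 for Psat1 with Pycr1 and 0.56 for Aldh18a1 with Asns. Among the serine enzymes the sign was mixed, at 0.37 for Phgdh with Psat1, 0.43 for Psat1 with Psph and -0.48 for Phgdh with Psph. These values describe 12 libraries that share their scaling, and Phgdh and Pycr1 rest on few counts.

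Among 11949 annotated genes with a mean of at least 1 CPM, those whose residual pattern over the 12 libraries was most like an enzyme's were named for each. They were Zfp704 and Tmem136 for Phgdh (r = 0.91 and 0.91), Usp25 and Itgb8 for Psat1 (0.94 and 0.89), and Ift22 and Ift43 for Psph (0.90 and 0.88). For the proline genes they were Sept8 and Dpf2 for Aldh18a1 (0.90 and 0.90), Pdcd6ip and Foxc1 for Pycr1 (0.94 and 0.93), and Mid1ip1 and Rragd for Prodh (0.94 and 0.93). For Asns they were Golgb1 and Gm9903 (0.92 and 0.90). Each was picked as the highest of 11949 correlations over only 12 libraries, a choice that by itself gives a high r. Single libraries can also carry such values, as WT replicate 1 was the lowest WT library for Asns, Golgb1 and Gm9903. Whether any of these genes follows its enzyme beyond this was not tested.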

How the data were processed

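The authors purified poly-A mRNA from ventricular wall, made libraries with a TruSeq RNA kit and counted reads per gene with HTSeq; the submitters' processing notes name HISAT2 2.0.5 and mm10. The deposited table gives the raw count of each library. Its identifiers and coordinates are those of the C57BL/6NJ assembly, its strand setting is not stated, and the mice were C57BL/6J by the study's methods. FPKM per library and per group were deposited by the authors, who computed them from counts, gene length and library size. The deposited mean scaled count of each group is a signal left aside here. The columns of the authors' own comparison (fold change on the log2 scale, p-value before and after adjustment) were also left aside.

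KO was compared with WT by edgeR 4.0.16 under R 4.3.3 (rows kept by filterByExpr, TMM factors, robust quasi-likelihood test, Benjamini-Hochberg over 17155 rows). Each standard error is the fold change over the root of F. The alternatives were DESeq2 size factors, library size only, all rows with a count, DESeq2 1.42.0, limma-voom (limma 3.58.1), a replicate block and each library left out. Leaving out WT replicate 6 and KO replicate 3 together was chosen after seeing the data. The analysis was tested on simulated counts.

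The enzymes, pathway lists and marker lists were chosen with earlier results of these data known. Genes named are the 7 enzymes, the 3 tested genes of each list with the smallest p, Pycr3 (listed as Pycrl), for each enzyme the 2 genes with the highest residual correlation (log2 CPM, prior count 2), Sdhaf4, genes that overlap or share sequence with an enzyme (Dgcr6, Cct6a), and others said to be chosen after their values were seen. One listed gene is not reported here. Of the lists, Glyctk had no row, Lyz2 matched several rows by annotation and was left out, Tdh and Prodh2 were at 0 counts, and Gls2, Slc7a3, Fgf21, Cd3e and Ms4a1 did not pass the filter. Intervals cover the spread between libraries as edgeR models it, and values under 1 CPM rest on few counts.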

Additional observations from a re-analysis of the deposited data

Results flagged for a closer look

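In a group of 6 libraries, a value was marked when its gap to the nearest other value was a larger part of the group's range than Dixon's critical value for 6 allows. Of 70 groups examined 6 were marked, and 1 of the 14 groups of the 7 enzymes was among them. Chance marks about 1 in 20 groups, but Foxc1 and Golgb1 were picked for following an enzyme's pattern over the same libraries, so their marks are not separate from it. Pycr1 in WT replicate 6 was at 1.72 CPM, whereas the other WT libraries were at 0.634 to 0.971 CPM. Nupr1 in WT replicate 5 was at 7.93 CPM (others 5.09 to 6.13 CPM). Foxc1, one of the genes most like Pycr1, was marked in both genotypes, at 7.38 CPM in WT replicate 6 (others 4.92 to 5.80 CPM) and at 7.48 CPM in KO replicate 3 (others 9.74 to 10.8 CPM). Golgb1, the gene most like Asns, was at 112 CPM in KO replicate 5 (others 119 to 123 CPM). Sdhaf4 in KO replicate 1 was at 2.73 CPM (others 2.25 to 2.41 CPM).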

How the results depend on the processing

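Under all 19 alternatives the 7 enzymes gave 5 higher and 1 lower, and 3 to 4 passed both thresholds. Log2 fold changes kept their direction and an adjusted p under 0.05 for Phgdh (0.88 to 1.23), Psph (0.51 to 0.63), Aldh18a1 (1.28 to 1.52), Pycr1 (1.56 to 2.07), Prodh (-1.18 to -0.90) and Asns (1.24 to 1.50). Phgdh and Prodh lay on either side of the fold threshold of 1, and where 4 enzymes passed both thresholds the fourth was Prodh. Psat1, which was not called, ranged from -0.18 to 0.04 over the fits without 1 library and turned positive without WT replicate 6 (0.04), without KO replicate 5 (0.02) and, in the alternative chosen after seeing the data, without both WT replicate 6 and KO replicate 3 (0.10). The cause was not tested. The counts of neighbouring genes stayed within 6 to 7 lower for serine and glycine, 2 higher and 3 to 4 lower for proline, 4 to 5 higher and 3 lower for asparagine, and 10 to 12 higher and 2 lower for ATF4. With DESeq2, 2281 rows passed both thresholds in place of 1755.

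Samples with the same replicate number did not deviate together (r from -0.16 to 0.02, and only WT replicate 3 correlated best with its own number). The labels do not say whether the numbers pair the samples, and these correlations cannot decide it, since a pairing with a small effect would look the same. With the replicate block, the log2 fold changes were 1.03 for Phgdh, -0.06 for Psat1, 0.56 for Psph, 1.38 for Aldh18a1, 1.67 for Pycr1, -1.03 for Prodh and 1.42 for Asns, 4 enzymes passed both thresholds, and 4123 rows were higher and 4110 lower in place of 4391 and 4376. Pycrl lost its call with the block (adjusted p = 0.0536 from edgeR).

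Depth limits Phgdh most, which had as few as 5 counts in a library, and then Pycr1 and Asns.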
